A study of Mus musculus with 8 samples.

Results

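The 9 genes described here encode transcription factors of cortical projection neurons, the glutamatergic cells of the cerebral cortex: Cux1 and Cux2 of the upper layers, Tbr1, Bcl11b, Fezf2 and Foxp2 of the deep layers, and the neurogenic basic helix-loop-helix (bHLH) factors Neurod1, Neurod2 and Neurod6. They were chosen by name, not by a measured value, but with earlier results of these data known. They are 9 of 21887 protein-coding genes on the assembled chromosomes in a RefSeq gene table. Each gene span with 50 kb on both sides formed a window, and a region of CTCF binding belonged to a window when its summit fell inside it. The windows held 53 of 36186 regions in the NMDA list and 49 of 33815 in the control list.

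Chromatin immunoprecipitation followed by sequencing (ChIP-seq) gave the CTCF binding sites of wild-type primary cortical neurons of Swiss-Webster mice, dissociated at embryonic day 16 and used on day 13 in vitro. NMDA cultures received 50 µM NMDA, which activates the glutamate receptors named after it, for 10 min and then recovered without drug for 50 min, and control cultures had no treatment. The 8 samples form 4 groups of 2 replicates, namely NMDA ChIP, NMDA input, control ChIP and control input. The culture protocol that all samples share also speaks of etoposide, which no label assigns to any sample. The authors deposited 1 region list per condition over both replicates, so differences between conditions have no test and are given as descriptions beside the same measure over the whole lists. Regions come from whole cultures, so binding in fewer cells and weaker binding in each cell cannot be told apart, and the lists hold no expression values with which the labelled cell type could be checked.

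The zinc finger protein CTCF recognises a long DNA motif and, with the cohesin complex, anchors chromatin loops and marks many domain boundaries. Projection neurons of the upper layers connect mainly within the cortex, while those of the deep layers send axons to the thalamus, brainstem and spinal cord. The factors named here act in the specification or maturation of these classes, and the bHLH factors act more broadly as excitatory neurons differentiate.

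A region was called shared when it overlapped a region of the other list by at least 1 bp, and otherwise NMDA-only or control-only. The strength of a region is the authors' −log10 p-value. That value grows with sequencing depth, which is unknown, so it was used only as a rank percentile, the percentage of regions of the same list that are weaker. On this scale 100 is the strongest region and 50 the middle of a list. In the NMDA list the value is the sum of a column for each replicate, in no stated order. Percentiles in these columns are given as the first and the second replicate column. No such columns were available for control regions, so the spread between control replicates is unknown. Where replicate columns are compared with the control, each is thus set against a single control value. How that control value combines its replicates was not tested.

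Promoter sequences were available for 8 of the 9 genes from RefSeq (GRCm38.p6), as 300 bases from 250 before to 50 after a start site. Those of 3 genes, Cux2, Cux1 and Bcl11b, overlapped a CTCF region, and they are printed because the regions at the gene starts are described for these genes. The core of the CTCF motif was searched on both strands as AGGGGGC, as AGGTGGC, as AGAGGGC and as AGATGGC, and capitals mark a match. All 3 genes lie on the minus strand, and the sequences run 5′ to 3′ along the gene, at chr5:122049802-122050101 for Cux2, at chr5:136565932-136566231 for Cux1 and at chr12:108003365-108003664 for Bcl11b.
Cux2: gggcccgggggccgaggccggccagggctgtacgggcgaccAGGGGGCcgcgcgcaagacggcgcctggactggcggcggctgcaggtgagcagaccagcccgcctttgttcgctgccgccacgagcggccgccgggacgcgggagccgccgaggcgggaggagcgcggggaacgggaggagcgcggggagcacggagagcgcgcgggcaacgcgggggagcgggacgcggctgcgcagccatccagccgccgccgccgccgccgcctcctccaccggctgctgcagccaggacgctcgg
Cux1: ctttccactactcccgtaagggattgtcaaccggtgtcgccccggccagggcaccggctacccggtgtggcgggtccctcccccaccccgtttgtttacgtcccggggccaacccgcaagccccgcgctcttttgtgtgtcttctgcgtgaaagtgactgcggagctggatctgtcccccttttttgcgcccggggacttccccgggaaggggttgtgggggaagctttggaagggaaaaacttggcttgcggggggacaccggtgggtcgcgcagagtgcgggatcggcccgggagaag
Bcl11b: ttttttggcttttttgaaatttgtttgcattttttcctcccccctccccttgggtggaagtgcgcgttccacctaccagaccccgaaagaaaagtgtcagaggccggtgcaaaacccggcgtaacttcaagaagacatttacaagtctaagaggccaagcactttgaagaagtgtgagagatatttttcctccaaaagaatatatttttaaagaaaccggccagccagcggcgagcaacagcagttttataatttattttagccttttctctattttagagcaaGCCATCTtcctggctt
The Cux2 promoter held 1 core match, from base 42 of the sequence, and the Bcl11b promoter held 1 match on the opposite strand, from base 285. The match at Bcl11b lay outside the 107 bases of its promoter that an NMDA region covered, while the control region covered all 300. The Cux1 promoter held no match to these spellings. Of the 32851 promoters in the table, 27.6% held a core on either strand. The GC content was 80.3% at Cux2, 65.0% at Cux1 and 43.0% at Bcl11b, against a median of 52.7% over all promoters, with 48, 25 and 9 CpG dinucleotides against a median of 7. The Cux2 promoter stood far above the median in both measures and the Bcl11b promoter below it in GC. A second Cux2 promoter and those of Tbr1, Fezf2, Neurod1, Neurod2 and Neurod6 overlapped no region of either list. Among these, the promoters of Neurod1 and Neurod2 held 1 core match each.

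CTCF regions at these genes were largely the same in both conditions. Of the 53 NMDA regions, 8 were NMDA-only, a share of 15.1% (95% Wilson interval 7.85% to 27.1%), against 15.5% of the whole NMDA list. Of the 49 control regions, 5 were control-only, a share of 10.2% (4.44% to 21.8%), against 9.22% of the whole control list. Both shares were thus near those of the whole lists. The intervals cover counting error only, and regions of 1 gene share a locus. A stricter definition of sharing, a reciprocal overlap of 50%, gave 14 NMDA-only (26.4%) and 10 control-only regions (20.4%). Both shares were above those of the whole lists by this rule, 20.4% and 14.8%. With the NMDA list limited to the length of the control list, 4 of 49 NMDA regions (8.16%) were NMDA-only, against 11.7% over the whole list.

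A shared region lay in the window of all 9 genes, as in 81.2% of windows of protein-coding genes. An NMDA-only region lay in 4 of 9 windows, those of Cux1, Cux2, Foxp2 and Neurod2, against 40.5% of all windows. A control-only region lay in 5 of 9, those of Cux1, Cux2, Tbr1, Bcl11b and Foxp2, against 25.8%. Long genes have wide windows, and among genes of the length class of Cux1, Cux2 and Foxp2 the shares were 52.8% with an NMDA-only and 39.2% with a control-only region.

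All 8 NMDA-only regions ranked low, between percentiles 0.263 and 23.6 with a median of 10.5, against a median of 12.3 for NMDA-only regions of the whole list. The 5 control-only regions ranked between 0.0444 and 49.5 with a median of 14.0, against 9.51 over the whole control list. Taking all regions of the windows, the median percentile was 58.3 in the NMDA list and 55.6 in the control list, and 11 NMDA and 9 control regions stood at percentile 90 or above. The list-only regions were thus among the weaker ones, as over the whole lists, where 98.5% of the NMDA-only regions ranked below 50, as did 99.2% of the control-only ones.

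**Figure D1:**
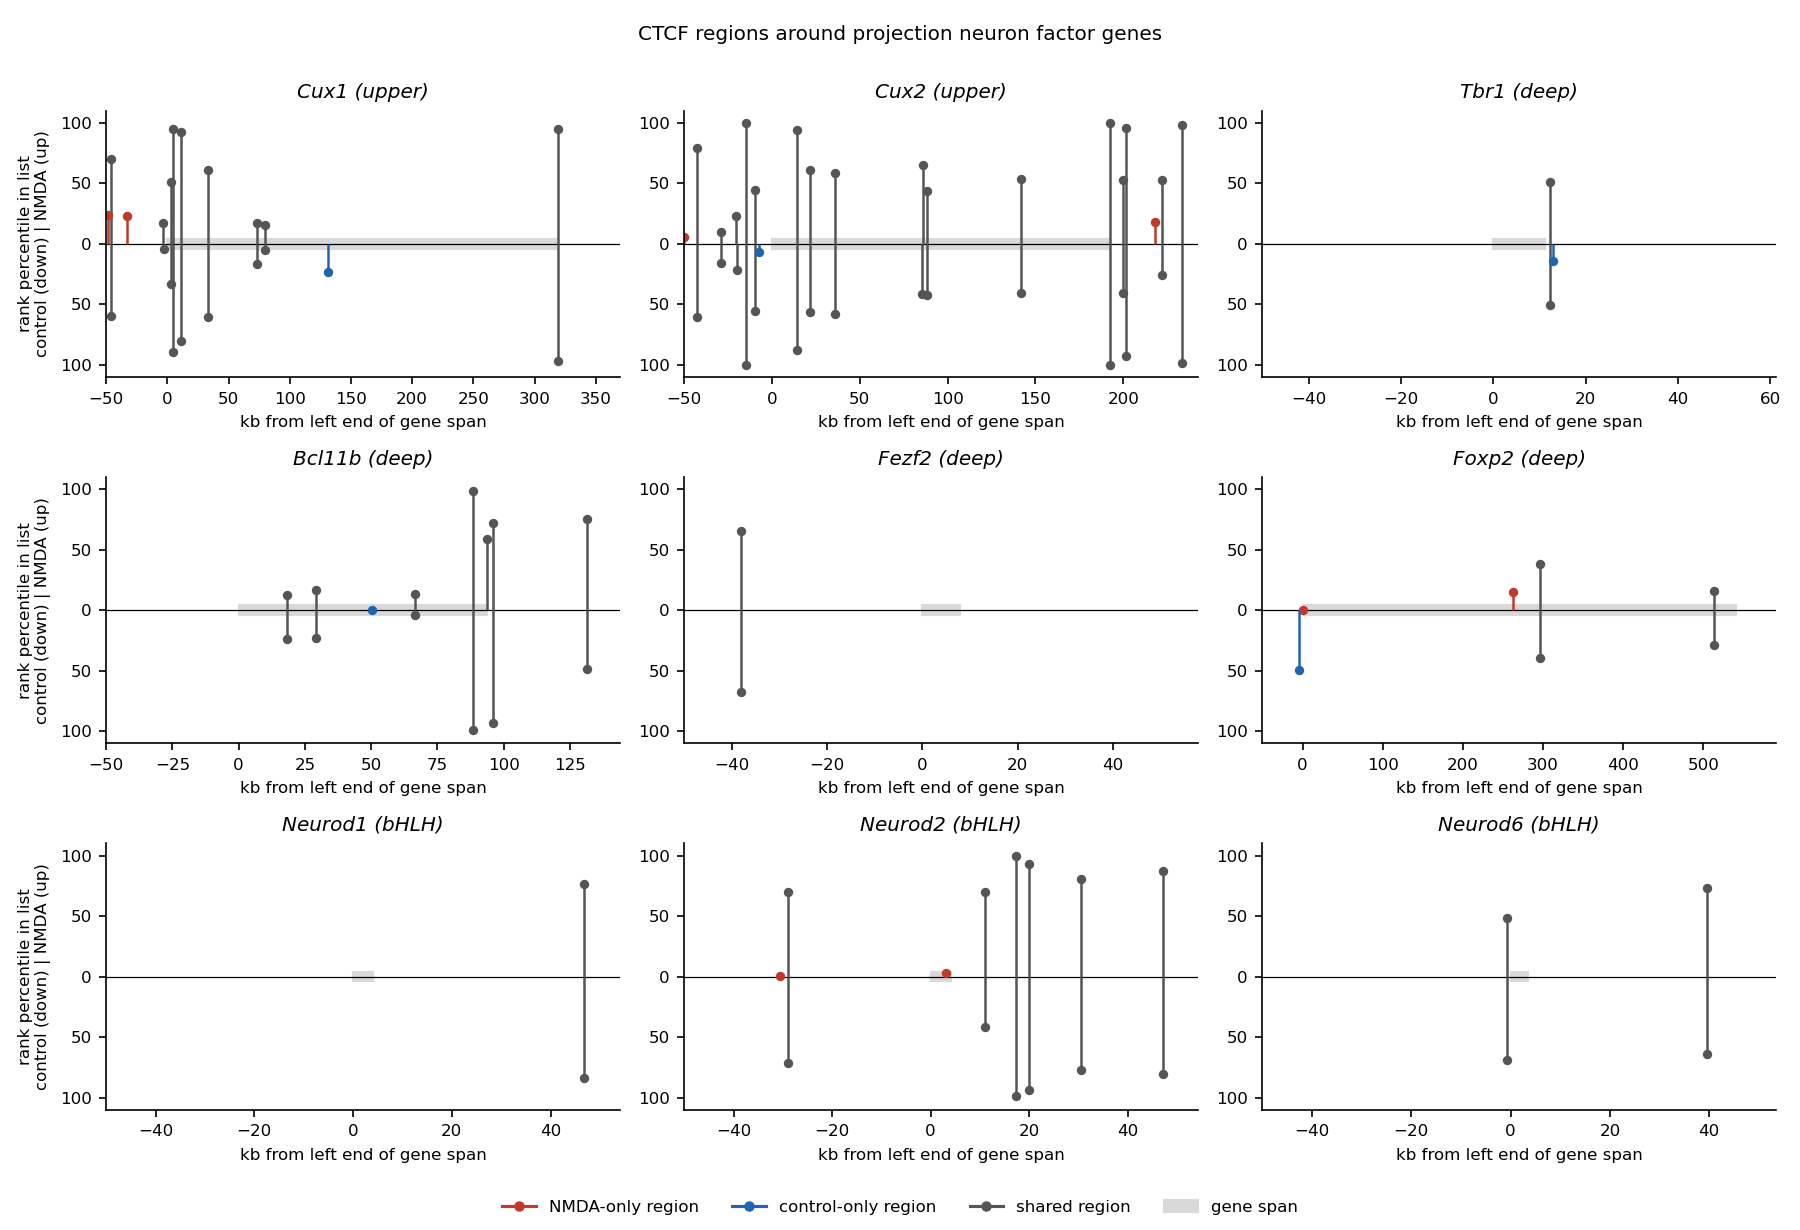
CTCF regions in the windows of the 9 genes, with 1 panel per gene and the distance of each summit from the left end of the gene span in kb on the x axis. The y axis is the rank percentile, with NMDA regions pointing up and control regions pointing down from the line at 0, colours give the class and the grey bar marks the gene span. The 8 NMDA-only and 5 control-only regions have short stems, except a control-only region at the left end of Foxp2 at percentile 49.5.

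Among the upper layer factors, Cux2, a homeodomain protein used as a marker of upper layer neurons, had the most regions of the 9 genes. Its window (span at chromosome 5, 121857962 to 122050415, 192 kb) held 18 NMDA and 17 control regions, or 6.15 NMDA and 5.81 control regions per 100 kb. Genes of the same length decile had medians of 1.41 in the NMDA list and 1.35 in the control list. Cux2 stood at the 98.8th percentile of that decile in the NMDA list and at the 99.1st in the control list.

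Both of the strongest regions at Cux2 ranked within the first 100 of each list. The region at the gene start (122048504 to 122051316 in the NMDA list and 122049908 to 122051174 in the control list) ranked 76 and 80, and its summit lay at the same base in both lists, at −611 bp from the start site (negative is upstream) and 47 bp beyond the span. It covered all 300 bases of the printed promoter in the NMDA list and 194 in the control list, and it was 2813 bp wide with NMDA and 1267 bp wide in the control. The second region, at 121842041 to 121844493 in the NMDA list, lay beyond the 3′ end of the gene and ranked 65 in the NMDA list and 73 in the control list. Strong regions therefore stood on both sides of the gene in both conditions. Another, at 122088350 to 122092126, reached percentile 97.8 with NMDA and 98.5 in the control, and the summits of its replicate columns lay 2077 bp apart.

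Of the 16 pairs of overlapping regions at Cux2, 5 ranked more than 10 points higher in the NMDA list and 1 more than 10 points lower. Whole-list shares were 22.5% higher and 10.9% lower. The widest difference was at 122079200 to 122081302, with percentile 52.3 with NMDA (64.1 and 45.4 in the replicate columns) and 25.5 in the control. A region at 121942937 to 121944259 inside the gene had percentile 65.0 with NMDA (69.0 and 62.7) and 41.5 in the control. In both, each replicate column exceeded the control percentile by more than 10 points. The region at 121814497 to 121816191 had 78.7 with NMDA and 60.6 in the control, but its replicate columns differed among themselves, at 87.7 and 65.8. At 121999136 to 122000686 the percentile was 53.7 with NMDA (57.5 and 52.7) and 40.4 in the control. At 122056864 to 122058324 it was 53.1 with NMDA (52.6 and 54.5) and 40.7 in the control. Here too, each replicate column exceeded the control percentile by more than 10 points. The pair at 121847754 to 121848869 ranked lower, at 44.7 with NMDA (62.3 and 31.6) and 55.6 in the control, and its replicate columns fell on either side of the control value. For a pair at 121836271 to 121838896 the summits lay 456 bp apart, against 66 bp between replicate columns.

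The list-only regions at Cux2 were weak and outside the gene span. The NMDA-only region at 121807864 to 121808370, in the neighbouring gene Atxn2, had percentile 5.92, with 0.62 and 13.3 in the replicate columns. The other, at 122075762 to 122076340, had percentile 18.1. A control-only region at 121849995 to 121850841, in the neighbouring gene Pheta1, had percentile 6.82.

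Cux1, a homeodomain protein of the same family that is also widely expressed outside the cortex, spans 319 kb at chromosome 5, 136248135 to 136567590. Its window held 11 NMDA and 10 control regions, or 2.62 and 2.38 per 100 kb, at the 79.3rd percentile of its length decile in the NMDA list and at the 78.3rd in the control list. The region at its start was the widest of the NMDA regions, with 4397 bp at 136565178 to 136569574 in the NMDA list and 4087 bp at 136565419 to 136569505 in the control list. It ranked 1897 with NMDA and 1178 in the control, its summits lay at −1644 bp with NMDA and −1634 bp in the control from the start site, and it covered the whole printed promoter in both lists. The printed promoter of each upper layer gene thus overlapped a shared region that ranked above percentile 90 in both lists.

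Of 9 pairs at Cux1, 5 ranked more than 10 points higher in the NMDA list and none more than 10 points lower. The shares over the whole lists were 22.5% higher and 10.9% lower. The region at 136250461 to 136251742 had percentile 51.5 with NMDA (55.9 and 50.4) and 33.3 in the control, and the one at 136257560 to 136259954 had 92.4 with NMDA and 80.0 in the control. At 136201762 to 136203024 the percentiles were 69.7 with NMDA and 59.4 in the control. The 2 remaining pairs were weak in both lists and fell in the lowest decile of control percentile. Over the whole lists, pairs in that decile had a median difference of 9.56 points. Of those pairs, 61.1% and 54.5% had a smaller difference than these 2, in the order given next. The region at 136244598 to 136246125, in the neighbouring gene Sh2b2, had 16.9 with NMDA and 4.24 in the control, and its summits lay 404 bp apart, against 66 bp between replicate columns. The region at 136327216 to 136328241 had 15.7 with NMDA and 4.91 in the control, and its replicate columns were at 33.6 and 4.75, on either side of the control value. The NMDA-only regions at 136198327 to 136200139 and at 136215081 to 136215639 had percentiles of 23.6 and 23.1. The control-only region, at 136379216 to 136380014 inside the gene, had 23.4, so all 3 were of like rank in their own lists.

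Among the deep layer factors, Bcl11b, a zinc finger protein also called Ctip2 that is known for its role in corticospinal neurons, had the most regions. Its span of 93.7 kb (chromosome 12, 107910403 to 108004145) and its flanks held 7 regions in each list, or 3.61 per 100 kb in both, against length decile medians of 2.34 in the NMDA list and 2.22 in the control list. The strongest region lay inside the gene at 107998012 to 108000979, 4474 bp downstream of the start site in the NMDA list and 4458 bp in the control list, and ranked 683 with NMDA and 505 in the control. To the left of the gene span, the nearest region lay about 679 kb away in both lists.

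The start of Bcl11b was the place where the lists differed most among the 45 pairs. The control list had 1 region of 4746 bp there, at 108002263 to 108007008, with percentile 93.5. The NMDA list had 2 regions in its place, of 1047 bp at 108003558 to 108004604 with percentile 59.2 (63.7 and 57.2 in the replicate columns), and of 1353 bp at 108005831 to 108007183 with percentile 72.2 (76.5 and 68.5). These were the widest differences in rank to lower values among the pairs, −34.3 and −21.3 points, and both replicate columns lay below the control for each. The control summit lay 7 bp from that of the second NMDA region, while the first had its summit 2174 bp away, at −786 bp from the start site. The control region covered all 300 bases of the printed promoter and the first NMDA region 107. Over the whole lists, 396 control regions, or 1.17%, overlapped more than 1 NMDA region, and a p-value of a wide region and those of narrower ones in its place are not the same measure. How the authors' peak calling bears on this was not tested.

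The other Bcl11b regions differed in both directions. The region at 108041083 to 108042200, outside the gene on the side of its start, had percentile 75.6 with NMDA (77.3 and 74.5) and 48.8 in the control with the summit at the same base. At 107928519 to 107929037 the percentiles were 12.2 with NMDA and 23.6 in the control, and at 107976540 to 107977510 they were 13.4 with NMDA and 4.30 in the control with summits 144 bp apart. The control-only region inside the gene, at 107960335 to 107960839, had percentile 0.0444, among the weakest of its list.

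Foxp2, a forkhead factor of deep layer neurons known for its link to speech and language in humans, is the longest of the 9 genes at 541 kb (chromosome 6, 14901349 to 15441977). It held the fewest regions for its length, 4 NMDA and 3 control regions, or 0.624 and 0.468 per 100 kb, against medians of 1.41 and 1.35 for its length decile. It was also the gene with the largest share of list-only regions among those with more than 2 regions, 2 of 4 in the NMDA list and 1 of 3 in the control list. The NMDA-only regions lay inside the gene, at 14901344 to 14902024 with percentile 0.263 and at 15163499 to 15164044 with 15.1. The control-only region, at 14896588 to 14897644, lay 4410 bp outside the left end of the span and had percentile 49.5, the highest of the list-only regions at the 9 genes. The left end of Foxp2 therefore had a mid-ranked region in the control list and a different, very weak one in the NMDA list. Of its pairs, the one at 15196902 to 15197885 had percentile 38.2 with NMDA (15.8 and 46.7) and 39.5 in the control, and the one at 15415053 to 15415554 had 15.7 with NMDA and 28.4 in the control.

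The short deep layer genes had few regions. Tbr1, a T-box factor of corticothalamic neurons (chromosome 2, 61802863 to 61814114), had a shared region past its 3′ end, at 61814477 to 61815372 in the NMDA list, with percentile 50.8 with NMDA and 50.3 in the control. A control-only region at 61815536 to 61816455, beside that shared region, had percentile 14.0. Its window held 0.899 NMDA and 1.80 control regions per 100 kb, against length decile medians of 3.64 and 3.59. Fezf2, a zinc finger factor required for subcerebral projection neurons (chromosome 14, 12338992 to 12346803), had 1 region in each list, 38.1 kb to the left of the gene at 12299743 to 12301693 in the NMDA list, with percentile 65.2 with NMDA (39.2 and 74.6) and 67.7 in the control. To the right, an NMDA-only region at 12397249 to 12397935 with percentile 30.3 lay 50.9 kb from the span, just outside the window. No region overlapped either gene span itself by its summit.

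The neurogenic bHLH factors had strong regions in the flanks and only 1 region inside a gene. Neurod2, which acts in the maturation of excitatory neurons and their synapses (chromosome 11, 98325415 to 98329645), had 8 NMDA and 6 control regions, the highest density of the 9 genes in the NMDA list at 7.68 per 100 kb, with 5.76 in the control. Length decile medians were 3.74 in the NMDA list and 2.87 in the control list. Its strongest region, at 98341576 to 98343635, 13078 bp to the right of the span on the side of the gene start, had percentile 99.6 with NMDA and 98.8 in the control. The region at 98335670 to 98337103, in Gm33099, had the widest difference to higher values of the 45 pairs, with 70.1 with NMDA (77.8 and 63.2) and 41.3 in the control. The remaining 4 shared regions differed by less than 10 points, with percentiles between 70.3 and 93.1 with NMDA and between 71.0 and 93.2 in the control.

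Both NMDA-only regions at Neurod2 were near the bottom of the list. The one inside the gene, at 98327984 to 98329152, lay 1058 bp downstream of the start site and had percentile 3.25, with 5.57 and 7.02 in the replicate columns. The other, at 98294211 to 98295542, had 0.696 and lay beside a shared region at 98295645 to 98297268. Neither was among the NMDA regions when that list was limited to the length of the control list.

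Neurod6, a bHLH factor of mature excitatory neurons (chromosome 6, 55677818 to 55681263), had 2 shared regions. The one past its 3′ end, at 55676440 to 55677406, had percentile 48.5 with NMDA (65.0 and 36.8) and 68.5 in the control, while the one at 55716815 to 55718015 had 73.3 with NMDA and 64.1 in the control. Its regions thus differed in opposite directions. Neurod1, which drives neuronal differentiation (chromosome 2, 79452637 to 79456636), had 1 shared region, 42.9 kb to the right at 79499036 to 79500102, with percentile 76.3 with NMDA (81.4 and 71.1) and 83.7 in the control.

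**Figure D2:**
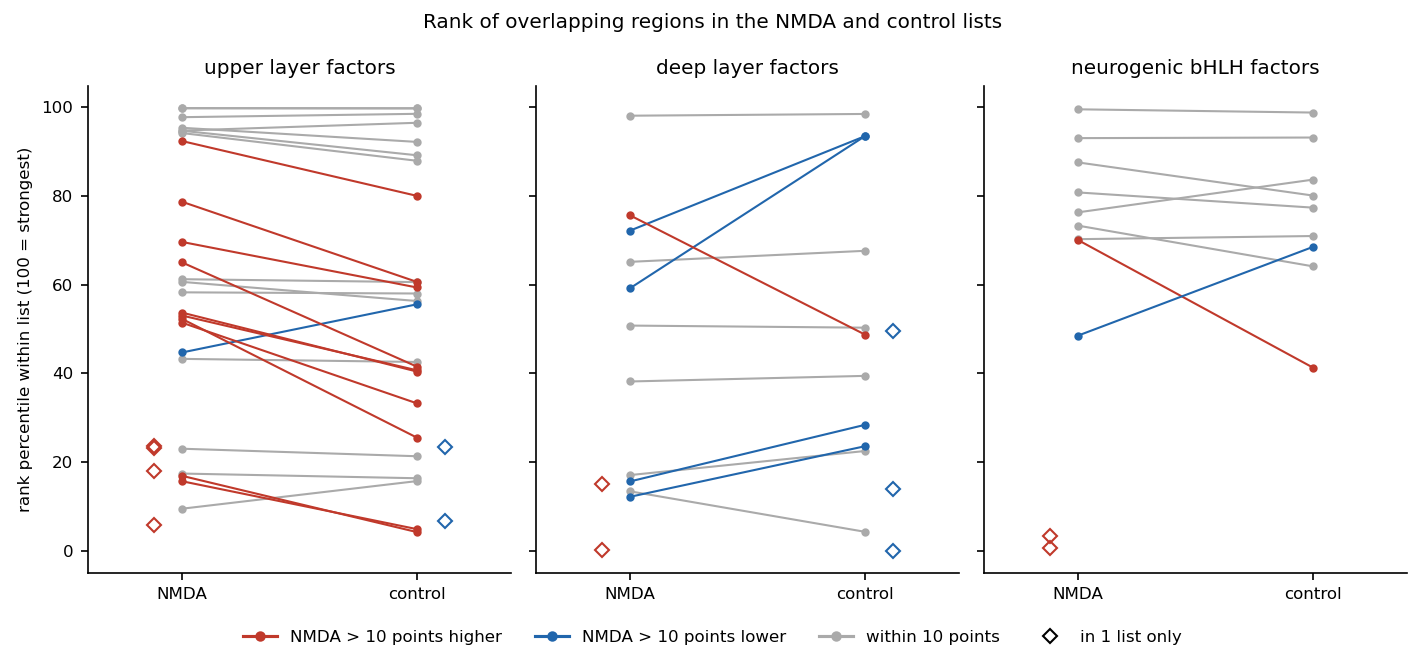
Rank percentile within the list (y axis, 100 is the strongest) of the 45 overlapping pairs, NMDA left of control, with 1 panel per group of genes. A line joins a pair, its colour shows a difference of more than 10 points, and diamonds are regions in 1 list only. Lines at the upper layer genes lie higher at the NMDA end in 21 of 25 pairs, those at the deep layer genes in 3 of 11 and those at the bHLH genes in 5 of 9.

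Over the 45 pairs, 12 (26.7%) ranked more than 10 points higher in the NMDA list, against 22.5% of 30570 pairs over the whole lists, and 6 (13.3%) more than 10 points lower, against 10.9%. In both replicate columns, 7 pairs were past 10 points higher and 3 past 10 points lower, against 12.1% and 4.75% over the whole lists. These 3, like the 6 above, include both NMDA regions at the Bcl11b start, which are set against the same control region. The median difference was 0.73 points over the genes and 2.28 over the whole lists. When regions were ranked among shared regions only, 8 pairs were past 10 points higher and 7 past 10 points lower, against 16.1% and 16.2% over the whole lists, and the median was 0.015 over the genes and 0.28 over the whole lists. The lean to higher ranks with NMDA was thus not seen under that ranking, for the genes or for the whole lists. Summits lay a median of 12 bp apart, against 18 bp over the whole lists, and more than 100 bp apart in 4 pairs (8.89%), against 6.94%. The distance between NMDA and control summits exceeded that between the NMDA replicate columns in 13 of 45 pairs, or 28.9%, against 33.7% over the whole lists. The 9 genes were thus close to the whole lists in these measures. Regions were 1332 bp wide at the median with NMDA and 1263 bp in the control, against 1182 bp and 1123 bp over the whole lists.

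**Figure D3:**
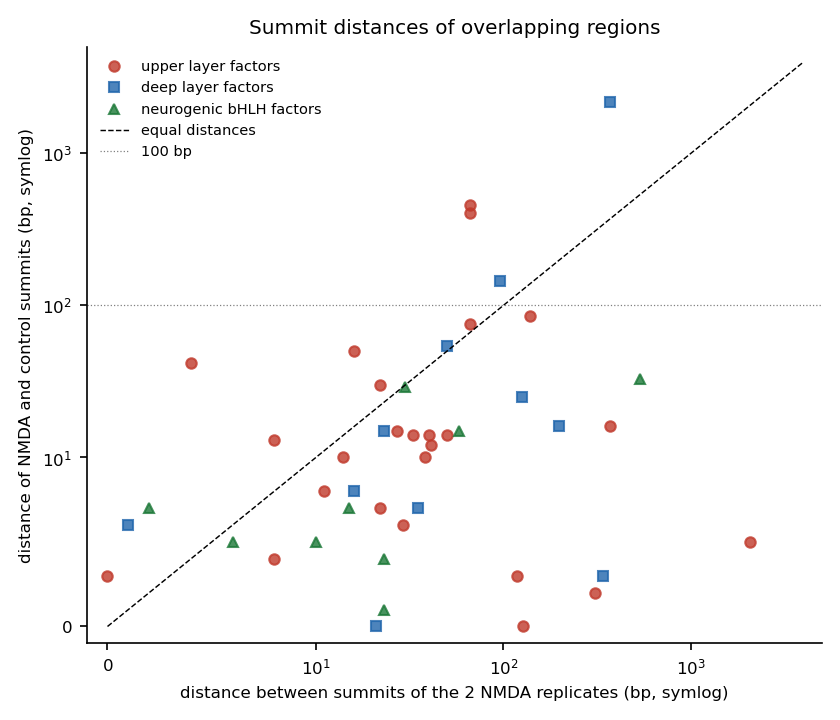
Distance between the NMDA and control summits of each of the 45 pairs (y axis, bp) against the distance between the summits of the 2 NMDA replicate columns (x axis, bp), both on axes that are linear near 0 and logarithmic beyond. The dashed line marks equal distances, which 13 pairs exceed, and the dotted line marks 100 bp, which 4 pairs exceed. The pair farthest above it is at the start of Bcl11b, at 2174 bp.

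The upper layer windows held more regions per length than the deep layer windows in both lists. There were 29 NMDA regions at Cux1 and Cux2 and 13 at the deep layer genes, or 4.07 and 1.23 per 100 kb (exact 95% Poisson intervals 2.73 to 5.85 and 0.657 to 2.11), a difference of 2.84 (1.23 to 4.71). In the control list 27 and 13 regions gave 3.79 and 1.23 per 100 kb, a difference of 2.56 (0.996 to 4.38). The intervals cover counting error only, genes are not replicates of a layer, and no test of upper against deep was made. The genes of a group differed among themselves: Bcl11b exceeded Cux1 in both lists. Without Cux2 the difference was 1.39 in the NMDA list and 1.15 in the control list, without Cux1 it was 4.92 and 4.58, and without Foxp2 1.89 and 1.37.

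**Figure D4:**
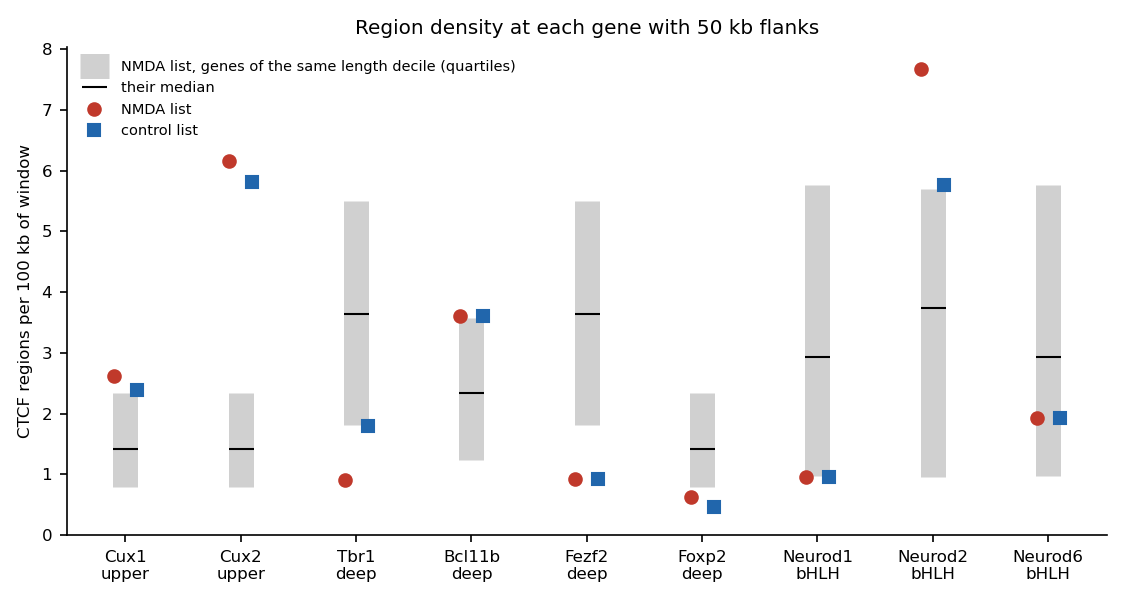
Regions per 100 kb of window (y axis) for each gene, with NMDA circles left of control squares. The grey bar and line give the quartiles and the median of protein-coding genes of the same length decile in the NMDA list. The NMDA values of Cux1, Cux2, Bcl11b and Neurod2 stand above the bar, Cux1 and Bcl11b by little, and Tbr1, Fezf2, Foxp2 and Neurod1 each have under 1 in the NMDA list.

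For the share of regions found in 1 list only, the intervals of the upper minus deep differences spanned both signs. No test was made, and these intervals treat regions of 1 gene as independent. NMDA-only regions made up 13.8% at the upper layer genes (5.50% to 30.6%) and 15.4% at the deep layer genes (4.33% to 42.2%), a difference of −1.59 percentage points (−29.7 to 18.5) that changed sign without Cux2 (2.80) or without Foxp2 (13.8). It was −25.5 points with a reciprocal overlap of 50%, −18.2 with flanks of 20 kb, −10.1 with summits within 100 bp and −9.58 with flanks of 100 kb. Control-only regions made up 7.41% (2.06% to 23.4%) and 23.1% (8.18% to 50.3%), a difference of −15.7 points (−43.4 to 6.16), which was −31.3 with the reciprocal overlap. At the bHLH genes 2 of 11 NMDA regions and none of 9 control regions were list-only.

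More upper layer pairs ranked higher with NMDA and more deep layer pairs ranked higher in the control. Of the upper layer pairs, 21 of 25 ranked higher with NMDA, with a median difference of 4.32 points; 10 were higher by more than 10 points and 1 was lower by more than 10. Of the deep layer pairs, 3 of 11 ranked higher with NMDA, with a median of −2.48 points; 1 was higher by more than 10 points and 4 were lower by more than 10. Over the whole lists 61.3% of pairs ranked higher with NMDA, 22.5% by more than 10 points, and 10.9% were lower by more than 10. The difference also varied with control rank. Its median over all pairs was 9.56 points in the lowest decile of control percentile and −0.24 in the highest. The counts for the layers were not adjusted for control rank. The upper minus deep difference of the medians was 6.80 points (−5.37 to 27.2), an interval that includes 0 and treats pairs of 1 gene as independent. Of the 4 deep layer pairs lower by over 10 points, 2 share the 1 wide control region at Bcl11b. Ranked among shared regions only, 16 of 25 upper layer and 2 of 11 deep layer pairs ranked higher with NMDA, against 51.7% over the whole lists. At the bHLH genes 5 of 9 pairs ranked higher with NMDA.

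The median percentile of the regions was 53.7 at the upper and 38.2 at the deep layer genes in the NMDA list, a difference of 15.5 points (−29.9 to 50.7) that was −5.49 without Foxp2, and 55.6 and 39.5 in the control list, a difference of 16.1 (−25.1 to 51.4). The bHLH genes had 73.3 in the NMDA list and 77.4 in the control list. Median widths were 1528 bp at the upper and 971 bp at the deep layer genes with NMDA, a difference of 557 bp (28.7 to 1179), and 1285 bp and 1181 bp in the control, a difference of 104 bp (−267 to 604). Upper layer regions were wider with NMDA in 17 of 25 pairs and deep layer regions in 3 of 11, against 61.0% of pairs over the whole lists. Of these 11 pairs, 2 set the narrower NMDA regions at the Bcl11b start against the same control region of 4746 bp. The intervals of percentiles and widths treat regions of 1 gene as independent. Summit distances were alike in size, with medians of 13 bp and 15 bp.

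Other genes of projection neurons were listed from textbook knowledge, with earlier results of these data known. Of 10 further upper layer genes, all 10 had a shared region in the window, 6 an NMDA-only and 3 a control-only region. The median density was 2.43 per 100 kb in the NMDA list and 2.68 in the control list. Of 12 further deep layer genes, 11 had a shared region, 5 an NMDA-only and 3 a control-only region, with median densities of 0.639 in the NMDA list and 0.675 in the control list, and Tle4, a corepressor, had no region in either list. The median over all protein-coding genes was 2.54 in the NMDA list and 2.34 in the control list, and the deep layer genes were longer, with a median span of 183 kb against 23.6 kb for the upper layer genes. Of 10 progenitor and general excitatory genes, 9 had a shared, 5 an NMDA-only and 3 a control-only region. Among windows of all protein-coding genes, 81.2% held a shared, 40.5% an NMDA-only and 25.8% a control-only region. The counts for the further genes were not adjusted for gene length. The shares of list-only regions were 18.6% NMDA-only and 10.3% control-only at the further upper layer genes, and 20.5% and 12.5% at the further deep layer genes. Over the whole lists they were 15.5% and 9.22%.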

How the data were processed

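CTCF ChIP-seq regions of NMDA and control cultures were used as deposited. The submitters' processing notes name MACS2, BWA, SAMtools, Trimmomatic and FastQC and the builds mm10 and GRCm38.p6, with no version or setting given in the sources used here. The authors deposited 1 region list per condition, with a score up to 1000 that rises with reproducibility, a −log10 p-value and a summit offset per region. Regions off the assembled chromosomes were left out (7 NMDA and 5 control). Input libraries were not analysed here.

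Gene spans were read from a RefSeq table (GRCm38.p6). Regions were assigned by summit, ranked by the deposited −log10 p-value within each list and paired by overlap, where each NMDA region was paired with the control region of the nearest summit. Intervals are 95% Wilson for shares, exact Poisson for densities and order-statistic for medians, and differences combine the bounds of both groups. Overlap, summit distance and rank steps were tested on an altered copy of the control list, with regions removed, shifted or given larger −log10 p-values. Split regions and replicate columns were not part of that test. All computing used Python 3.11.15 with numpy 2.4.6, pandas 2.3.3, scipy 1.17.1 and matplotlib 3.10.9.

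For each gene the strongest region of each list, every list-only region and every pair past 10 percentile points or 100 bp are named, and, of the further genes, up to 4 per list with the most list-only regions (those tied at 1 are not named). The members and gene lists were chosen with earlier results of these data known. Alternatives were the overlap rule, the flank (20 kb and 100 kb), the score ceiling, list length, the replicate columns and leaving out each gene.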

Additional observations from a re-analysis of the deposited data

How the results depend on the processing

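With regions at the score ceiling of 1000 alone, the control-only share over the 9 genes was 2.94% (1 of 34 regions), against 4.10% over the whole list, and densities were 1.88 per 100 kb in the NMDA list and 1.64 in the control list (the densities were added after seeing the data). Pairs past 10 points in both replicate columns, also added after seeing the data, numbered 7 higher and 3 lower with NMDA. Counting pairs past 10 points by rank among shared regions was likewise added then, while its median was planned. Leaving out each gene in turn, the upper minus deep difference ranged from −19.5 to 13.8 points for the NMDA-only share, from 1.39 to 4.92 for the NMDA density and from 1.15 to 4.58 for the control density. It ranged from −5.49 to 26.8 for the median percentile in the NMDA list and from −3 to 6 bp for the summit distance, where the sign changed without Bcl11b. The causes were not tested. Of the values computed again for the main comparisons, 108 kept their direction and moved by less than their counting error or 1.5 times, 7 moved further and 4 changed sign. Counting error was wide for many upper minus deep differences, so the 108 include large shifts. For the NMDA-only share, that difference went from −1.59 to −25.5 points with reciprocal overlap and was among the 108. Reciprocal overlap gave 3 NMDA-only regions at Bcl11b, in place of 0. No paired analysis was possible because each condition holds 1 list over both replicates. Ranking by column 7 was not run because it holds −1 in every region. Depth is unknown, so a region missing from a list is not shown to be unbound.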

Other observations

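Of the further projection neuron genes, those with more than 1 list-only region in the window are given here. Among the deep layer genes, Sox5, an SRY-box factor, had 4 NMDA-only regions with percentiles from 8.67 to 30.0 and 1 control-only region at 7.53. Foxp1, a forkhead factor, had 2 NMDA-only regions at 0.709 and 14.3 and 3 control-only regions at 9.76, 11.5 and 14.7. Among the upper layer genes, Mdga1, a cell surface protein, had 3 NMDA-only regions at 8.15, 19.7 and 29.9 and 1 control-only region at 21.0. Pou3f1, a POU factor, had no NMDA-only region and 2 control-only regions at 14.0 and 12.7. Bhlhe22, a bHLH factor, had 1 NMDA-only region at 19.6 and 1 control-only region at 6.02.

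Pax6, a paired box factor of radial glia, was the only gene among the progenitor and general excitatory genes with list-only regions and no shared region in its window. Its NMDA-only region, at chromosome 2, 105687409 to 105688073, had percentile 1.67, and its control-only region, at 105675822 to 105677120, had 17.9. Slc17a7, the vesicular glutamate transporter of cortical excitatory neurons, had 1 NMDA-only region at 12.2 and 2 control-only regions at 22.0 and 2.37. Emx1, a homeobox factor of the dorsal telencephalon, had 2 NMDA-only regions at 11.0 and 6.46 and no control-only region. Emx2, of the same family, had 1 NMDA-only region at 21.4 and 1 control-only region at 17.3. All of these are single regions without a test.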
